A study of Mus musculus with 105 samples.

Results

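The 10 genes whose protein products belong to germ cells and that are described here, Dazl, Ddx4, Mael, Asz1, Hormad1, Sycp1, Sycp3, Taf7l, Tuba3a and Tuba3b, were followed while mouse embryonic stem cells left the naive state. They were taken by name, as a fixed list of 10 genes out of the 52016 genes in the bulk count tables, to describe how quickly each was switched off after the 2i inhibitors were withdrawn. The cells were TX1072, a female embryonic stem cell line from a cross of C57BL/6 (B6) and CAST/EiJ (Cast) mice, with a doxycycline-responsive promoter in front of Xist on the B6 X chromosome, and 2 lines derived from it, TXdXicB6 and TXdXicCast, in which the X inactivation center was deleted on the B6 or on the Cast X chromosome. Each deletion line was a single clone. At day 0 all lines were held in serum, LIF and 2i, an inhibitor of Gsk3 with an inhibitor of MEK, and at days 1 to 4 they had been without 2i and LIF on fibronectin for that number of days. Bulk RNA-seq covered 5 days with 3 replicates in each line, so 15 TX1072 libraries of 19827011 to 39628784 counts and 30 deletion-line libraries of 16906263 to 57920260 counts, and TX1072 replicate 1 was also profiled as single cells. The methods state that the RNA of TXdXicCast at the first time point was degraded and was fragmented more mildly. Line comparisons that use those 3 libraries are therefore given beside ones that do not. As labelled, the day 0 cells carried the naive factors, with Tfcp2l1 at 2229 CPM and Nanog at 1062 CPM on average in TX1072.

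Germline genes of this kind are kept silent in somatic cells by DNA methylation of their CpG-rich promoters, together with a Polycomb complex that contains E2F6 and the Max and Mga proteins. Under 2i, stem cells lose most of their DNA methylation, and the methyltransferases return when the inhibitors are removed. E2F6 recognises a TCCCGC core and Max with Mga recognises the E-box CACGTG, so promoter sequence is part of how these genes are usually described.

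The 10 genes lay on 7 chromosomes of mouse build GRCm38 (GENCODE M21 coordinates). Dazl occupied chr17:50279395-50293636, Ddx4 chr13:112598333-112652475, Mael chr1:166201201-166238747, Sycp1 chr3:102818499-102936100, Hormad1 chr3:95559677-95587671, Sycp3 chr10:88459569-88473236, Asz1 chr6:18050964-18109061, Tuba3a chr6:125278274-125286042, Tuba3b chr6:145615757-145621479 and Taf7l chrX:134460118-134476490. Taf7l was the one X-linked gene among them. The counts covered their exons. Sycp3 shared 660 exonic bases with the antisense gene Chpt1, and since the strand setting of the bulk counting was not given in the sources used here, reads of Sycp3 and Chpt1 cannot be told apart there. The same holds for 75 exonic bases that Tuba3a shared with 4930417O13Rik on the opposite strand. Tuba3a and Tuba3b were 97.0% identical over 1353 coding bases, with an identical run of 155 bases, so how their reads were divided between them is uncertain.

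All 10 genes had a RefSeq promoter window of 300 bases, from 250 before the transcription start to 50 after it. The E-box CACGTG, which reads the same on both strands, was present in the windows of 6 of the 10 genes, Ddx4, Mael, Sycp1, Sycp3, Taf7l and Hormad1, and in 7.15% of all 32851 windows. The core TCCCGC, or GCGGGA on the other strand, was present in 7 of the 10, Ddx4, Mael, Sycp1, Sycp3, Hormad1, Tuba3a and Tuba3b, and in 20.0% of all windows. A match of the E-box and a match of the core can share a base. Both motifs stood together in 5 of 10 windows and in 1.99% of all windows, while the windows of Dazl and Asz1 held neither. The windows of the 10 genes held 12 to 38 CpG dinucleotides, against a median of 7 over all windows. Of these, 5 upstream sequences of 234 to 250 bases are shown, read 5′ to 3′ on the strand of the gene. Each ends before the RefSeq or the GENCODE start, whichever lay further upstream. They were taken because they include windows with neither motif (Dazl), with the core alone (Tuba3a) and with both. They also span the time courses described afterwards. The class with the E-box alone, that of Taf7l, is not shown. Capitals mark the E-box and the TCCCGC or GCGGGA core (RefSeq, GRCm38.p6). The core of Sycp1 and a further core of Mael lie after the start and outside the stretches shown. Dazl is at chr17:50293637-50293870, Tuba3a at chr6:125286082-125286331 and Mael at chr1:166238748-166238994, all on the minus strand, as is Sycp1 at chr3:102936101-102936350, and Hormad1 is at chr3:95559427-95559676 on the plus strand.
Dazl: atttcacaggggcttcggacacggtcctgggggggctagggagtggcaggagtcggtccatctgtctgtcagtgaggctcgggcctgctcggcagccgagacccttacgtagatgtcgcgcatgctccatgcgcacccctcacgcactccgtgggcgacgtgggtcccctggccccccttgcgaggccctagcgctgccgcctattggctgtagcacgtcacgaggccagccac
Tuba3a: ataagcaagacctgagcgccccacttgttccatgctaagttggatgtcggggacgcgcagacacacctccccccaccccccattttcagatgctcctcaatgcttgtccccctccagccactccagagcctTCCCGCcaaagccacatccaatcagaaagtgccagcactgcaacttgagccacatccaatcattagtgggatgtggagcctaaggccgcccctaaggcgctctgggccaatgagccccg
Hormad1: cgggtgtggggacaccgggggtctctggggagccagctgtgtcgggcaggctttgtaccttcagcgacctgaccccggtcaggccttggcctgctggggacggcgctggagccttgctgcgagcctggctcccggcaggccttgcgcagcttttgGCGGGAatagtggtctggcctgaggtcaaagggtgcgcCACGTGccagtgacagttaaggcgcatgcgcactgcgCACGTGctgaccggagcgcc
Sycp1: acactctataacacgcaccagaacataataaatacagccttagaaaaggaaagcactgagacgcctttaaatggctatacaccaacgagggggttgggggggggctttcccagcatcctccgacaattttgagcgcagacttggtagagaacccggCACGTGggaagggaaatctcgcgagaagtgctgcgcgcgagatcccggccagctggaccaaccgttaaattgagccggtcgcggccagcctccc
Mael: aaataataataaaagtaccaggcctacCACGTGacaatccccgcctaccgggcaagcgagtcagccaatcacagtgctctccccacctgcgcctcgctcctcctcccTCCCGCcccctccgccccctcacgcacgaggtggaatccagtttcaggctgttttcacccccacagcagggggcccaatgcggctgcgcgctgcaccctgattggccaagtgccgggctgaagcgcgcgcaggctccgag
A motif match describes the letters in a window and was not tested as a binding site.

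In TX1072 the genes did not go down together. Dazl, Tuba3a and Tuba3b were below day 0 from day 2 on, Tuba3b after a rise at day 1. Hormad1 and Asz1 first rose and then ended below day 0. Ddx4, Mael, Sycp1, Sycp3 and Taf7l rose, and 4 of these 5 were still above day 0 at day 4. Against day 0, edgeR's quasi-likelihood test (adjusted p at most 0.05 over all 19038 genes tested) called 0 of 10 genes lower and 7 higher at day 1, where 21.0% of all genes were lower and 25.1% higher. At day 2 it called 3 lower and 6 higher (all genes, 26.3% and 29.2%), at day 3 4 lower and 5 higher (26.8% and 28.3%), and at day 4 5 lower and 4 higher (28.7% and 30.3%). The count of 0 lower at day 1 was also 0 at an unadjusted p under 0.05 and 0 with DESeq2. The median log2 fold change of the 10 genes went from 1.58 at day 1 over 1.72 and 1.45 at days 2 and 3 to -0.95 at day 4, and that of all genes stayed between -0.02 and 0.04. These calls measure the spread between 3 replicates, which the study differentiated on different days. In bulk samples, fewer cells of a type and less RNA per cell cannot be told apart.

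**Figure D1:**
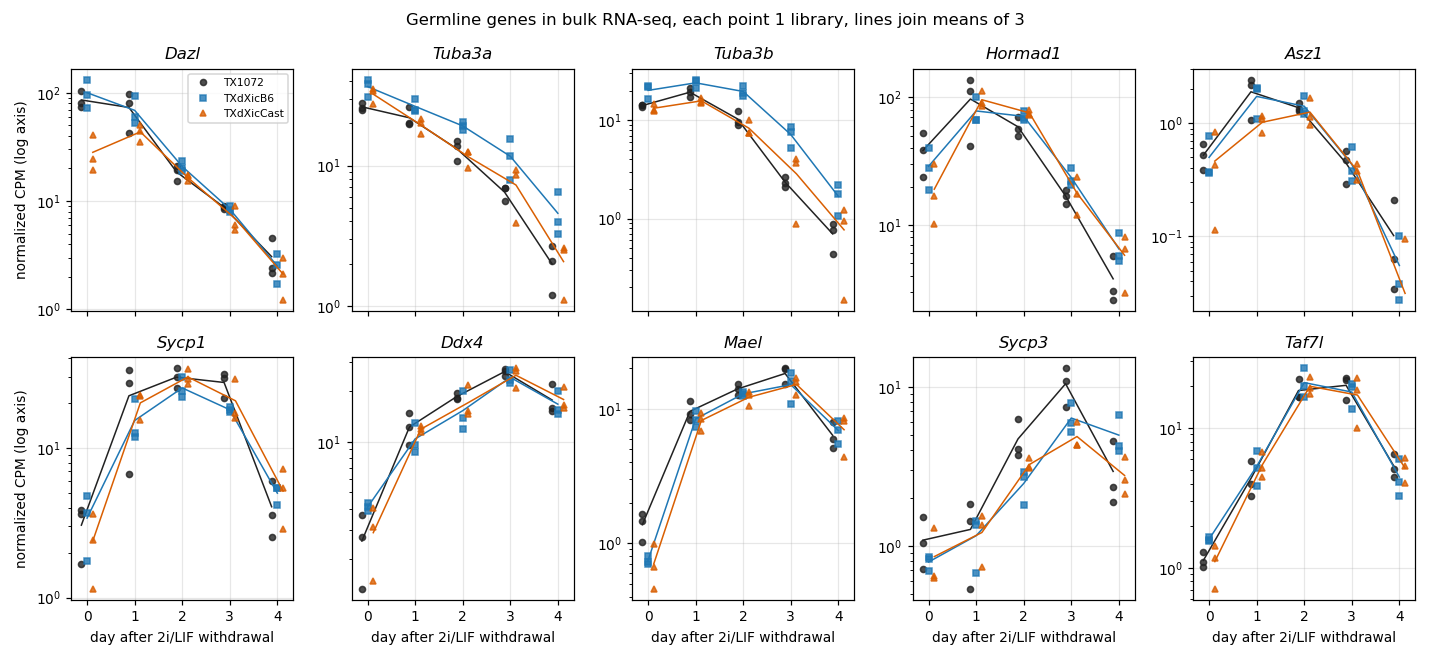
Level of each germline gene in bulk RNA-seq. The x axis is the day after 2i/LIF withdrawal and the log y axis is normalized CPM, with 1 point per library, lines through the means of 3, and black for TX1072, blue for TXdXicB6 and orange for TXdXicCast. Dazl, Tuba3a and Tuba3b drop to under 7 CPM at day 4, while Ddx4 ends above its day 0 level in all lines. The 2 TXdXicCast day 4 libraries with 0 counts of Asz1 are not drawn.

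The levels at the start differed widely. Per kilobase of exon at day 0 in TX1072, Dazl stood at 22.4 CPM per kb, Hormad1 at 22.1, Tuba3a at 17.4 and Tuba3b at 7.97. Sycp1 (0.859), Sycp3 (0.857), Ddx4 (0.852), Mael (0.793), Taf7l (0.504) and Asz1 (0.185) were all under 1 CPM per kb. Dazl and Hormad1 differed by less than their spread, as did Sycp1, Sycp3, Ddx4 and Mael among themselves. The 4 genes highest at day 0 were among the 5 that ended below it, and the other one was Asz1, the lowest.

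Dazl encodes an RNA-binding protein that primordial germ cells need in order to enter gametogenesis. In TX1072 it stood at 103, 80.2 and 73.6 CPM in replicates 1, 2 and 3 of day 0 and at 96.7, 42.3 and 80.4 CPM at day 1. It then went to 21.1, 15.4 and 19.23 CPM at day 2 and to 8.49, 8.81 and 8.92 at day 3. At day 4 it was at 2.17, 2.43 and 4.59 CPM. Days 0 and 1 overlapped, with replicate 2 lowest at day 1, and from day 2 on every day lay wholly below the one before it. The log2 fold change against day 0 was -0.23 ± 0.24 (SE, edgeR adjusted p = 0.464) at day 1, -2.21 ± 0.26 (adjusted p = 4.97e-07) at day 2 and -4.80 ± 0.30 (adjusted p = 5.41e-11) at day 4. Between days 1 and 2 Dazl fell by 1.98 on the log2 scale (edgeR adjusted p = 4.5e-06), more than Tuba3a and Tuba3b, which fell by 0.74 and 0.91. These 2 were the other genes called lower in that interval, and the replicate block added Hormad1.

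Ddx4 (the mouse Vasa helicase), Mael (Maelstrom) and Asz1 act in the nuage, the cytoplasmic granule of germ cells in which piRNAs against transposons are made. Ddx4 stood at 2.71, 3.66 and 1.34 CPM at day 0 and at 14.9, 9.52 and 12.3 CPM at day 1. It reached 27.3, 26.3 and 24.7 CPM at day 3 and stood at 15.2, 15.8 and 22.2 CPM at day 4. All 3 day 4 libraries lay above every day 0 and day 1 library. The increase against day 0 was 2.23 ± 0.24 (SE) on the log2 scale at day 1 (edgeR adjusted p = 4.03e-07) and 2.77 ± 0.25 at day 4 (adjusted p = 1.03e-08). Between days 3 and 4 Ddx4 gave a log2 fold change of -0.56 with an edgeR adjusted p of 0.0629, which was 0.0454 with the replicate block, and DESeq2 without the block also called it lower.

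Mael went from 1.01, 1.64 and 1.47 CPM at day 0 to 11.4, 8.22 and 9.08 CPM at day 1. It stood at 15.2, 20.0 and 19.8 CPM at day 3 and at 5.06, 5.94 and 8.04 CPM at day 4. The day 4 libraries lay below those of day 1 and above those of day 0. Its increase against day 0 was 3.75 ± 0.22 (SE) on the log2 scale at day 3 and 2.23 ± 0.22 at day 4 (edgeR adjusted p = 5.76e-08), and it fell by 1.52 between days 3 and 4 (adjusted p = 1.25e-05). Asz1 was the scarcest of the 10, at 0.657, 0.522 and 0.388 CPM at day 0, 2.44, 1.07 and 2.19 CPM at day 1 and 0.034, 0.0632 and 0.208 CPM at day 4. Its day 0 libraries held 9 to 24 counts. It rose at day 1 (log2 fold change 1.82 ± 0.37, edgeR adjusted p = 0.000487) and was below day 0 at day 4 (-2.30 ± 0.54, adjusted p = 0.0011), with no overlap in either case.

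Hormad1, Sycp1 and Sycp3 build meiotic chromosomes. Hormad1 sits on the unsynapsed axis, Sycp3 forms the axial and lateral elements, and Sycp1 is the transverse filament of the synaptonemal complex. Hormad1 stood at 52.3, 23.9 and 38.6 CPM at day 0 and at 138, 41.5 and 112 CPM at day 1. It was at 56.4, 50.2 and 69.7 CPM at day 2, 18.9, 17.0 and 14.7 CPM at day 3 and 3.02, 2.59 and 5.75 CPM at day 4. Replicate 2 was lowest at day 1 and overlapped the day 0 libraries, while days 3 and 4 lay below every day 0 library. Hormad1 rose by 1.34 ± 0.34 (SE, log2) at day 1 (edgeR adjusted p = 0.00299), gave 0.62 ± 0.33 at day 2 (adjusted p = 0.127, and 0.0197 with the replicate block), and was lower by day 3 (-1.18 ± 0.34, adjusted p = 0.00668). Without replicate 1, and without replicate 3, the day 3 call was lost. By day 4 the log2 fold change was -3.33 ± 0.38.

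Sycp1 stood at 3.86, 1.68 and 3.62 CPM at day 0 and at 33.3, 6.69 and 27.5 CPM at day 1. Levels were 30.2, 25.4 and 34.3 CPM at day 2 and 21.6, 31.6 and 29.7 CPM at day 3. At day 4 it was at 3.57, 2.56 and 6.05 CPM, overlapping the day 0 libraries. The log2 fold change against day 0 was 3.28 ± 0.45 (SE) at day 2 (edgeR adjusted p = 3.88e-06) and 0.41 ± 0.45 at day 4 (adjusted p = 0.464), and between days 3 and 4 Sycp1 fell by 2.76 (adjusted p = 0.00011), the largest drop of the 10 genes in that interval. Sycp3 lagged behind. It was at 1.51, 0.709 and 1.03 CPM at day 0, 1.84, 0.536 and 1.42 CPM at day 1, 6.30, 3.74 and 4.05 CPM at day 2, 13.0, 10.8 and 7.47 CPM at day 3 and 4.55, 1.90 and 2.35 CPM at day 4. Its day 1 libraries overlapped those of day 0 and every later library lay above them. Its change was 0.18 ± 0.43 (log2, edgeR adjusted p = 0.766) at day 1, 3.23 ± 0.40 (adjusted p = 1.19e-06) at day 3 and 1.40 ± 0.41 (adjusted p = 0.00625) at day 4.

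Taf7l encodes a germ cell relative of the general transcription factor subunit Taf7. It stood at 1.10, 1.01 and 1.29 CPM at day 0 and at 5.85, 3.27 and 3.95 CPM at day 1. It reached 16.5, 22.5 and 16.5 CPM at day 2 and 15.9, 22.6 and 22.0 CPM at day 3, and stood at 5.10, 4.45 and 6.55 CPM at day 4. All later libraries were above the day 0 libraries. Its increase of 4.16 ± 0.25 (SE, log2) at day 3 (edgeR adjusted p = 5.01e-11) was the largest increase of the 10 genes at any day in TX1072, and at day 4 it was 2.25 ± 0.25 above day 0 (adjusted p = 2.57e-07).

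Tuba3a and Tuba3b encode alpha-tubulins of the testis. Tuba3a stood at 24.8, 25.7 and 28.0 CPM at day 0, 19.7, 25.9 and 20.1 CPM at day 1 and 14.9, 13.7 and 10.7 CPM at day 2. It was at 5.58, 6.90 and 6.91 CPM at day 3 and 1.19, 2.69 and 2.08 CPM at day 4. From day 2 on it lay below all day 0 libraries, with log2 fold changes of -0.997 ± 0.19 (SE, edgeR adjusted p = 0.000193) at day 2 and -3.71 ± 0.22 (adjusted p = 3.33e-11) at day 4. Tuba3b, at 14.4, 14.2 and 13.8 CPM at day 0, was at 19.5, 21.3 and 17.3 CPM at day 1 and 12.6, 9.56 and 8.93 CPM at day 2. By day 4 it had gone to 0.442, 0.885 and 0.774 CPM. The groups of days 0, 1 and 2 did not overlap. The changes of 0.45 ± 0.17 (log2, edgeR adjusted p = 0.0321) at day 1 and -0.45 ± 0.17 (adjusted p = 0.0279) at day 2 were small. The day 1 call was lost without any one of the 3 replicates and the day 2 call without replicate 2 or replicate 3, whereas the change of -4.32 ± 0.21 at day 4 was called in every setting tried.

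Taken day by day, the fall was spread over 3 intervals. From day 1 to day 2, 3 of the 10 genes fell and 4 rose (all genes, 19.9% lower and 18.8% higher). With the replicate block Hormad1 was called lower there as well. From day 2 to day 3, 5 fell, Dazl, Tuba3a, Tuba3b, Hormad1 and Asz1, and Sycp3 rose (12.7% and 13.5%). From day 3 to day 4, 9 fell and 0 rose (11.5% and 15.4%), with a median log2 fold change of -1.78 against 0.00 for all genes. The count of 0 higher was also 0 at an unadjusted p under 0.05 and with DESeq2, which called all 10 genes lower, Ddx4 included.

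**Figure D2:**
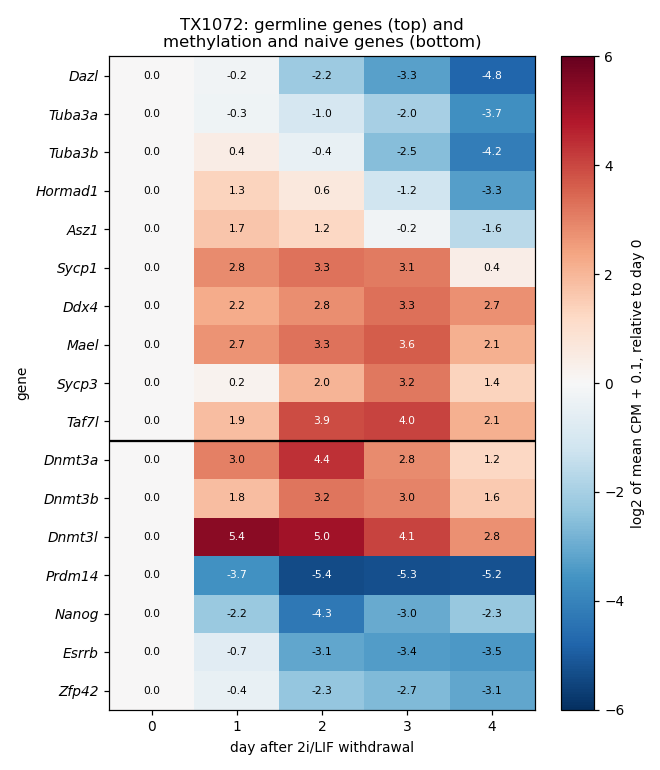
Mean TX1072 level relative to day 0. The x axis is the day, rows are genes with the 10 germline genes above the line and methylation and naive genes below it, and color and printed numbers give log2 of (mean CPM + 0.1) relative to day 0, red for higher and blue for lower. Dazl, Tuba3a and Tuba3b turn blue by day 3, and Ddx4, Mael, Sycp3 and Taf7l stay red through day 4.

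The time at which a gene reached 50% of its day 0 level was interpolated on the log scale within each replicate number. In TX1072 it was 1.34 ± 0.25 days for Dazl, 1.96 ± 0.33 for Tuba3a, 2.25 ± 0.06 for Tuba3b and 2.91 ± 0.25 for Hormad1 (SD, n = 3), and 3.26 days for Asz1 in the 2 replicates that crossed it. Ddx4, Mael, Sycp1, Sycp3 and Taf7l did not reach 50% of their day 0 level within 4 days in any replicate of any line. By day 4, Dazl had 3.79% ± 2.17 of its day 0 level, Tuba3b 4.96% ± 1.68, Tuba3a 7.55% ± 2.82 and Hormad1 10.5% ± 4.56, whereas Ddx4 kept 68.4% ± 18.4 of its own peak level. Sycp1 kept 12.1% ± 4.92 of its peak. The order of Dazl, the tubulins and Hormad1 holds for day 0 as the reference. With the day 1 level as reference, a setting chosen after the data were seen, TX1072 reached 50% at day 1.54 ± 0.13 for Dazl, 2.02 ± 0.14 for Tuba3b, 2.23 ± 0.18 for Tuba3a, 2.25 ± 0.53 for Hormad1, 2.49 ± 0.45 for Asz1 and 3.51 ± 0.38 for Sycp1 (SD, n = 3), so Hormad1 and the tubulins differed by less than their spread.

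The deletion lines were counted in the same way. Against day 0, TXdXicB6 had 0 genes lower and 6 higher at day 1 (of all 19819 genes tested, 21.8% lower and 23.3% higher). Day 2 gave 2 lower and 7 higher (27.0% and 28.7%), day 3 gave 3 lower and 5 higher (27.4% and 29.8%) and day 4 gave 5 lower and 4 higher (28.8% and 30.0%). In TXdXicCast, day 1 gave 1 lower and 7 higher (29.6% and 29.0%), day 2 gave 2 lower and 7 higher (32.4% and 33.8%), day 3 gave 3 lower and 5 higher (33.9% and 34.2%) and day 4 gave 5 of each (34.2% and 35.3%). The gene lower at day 1 was Tuba3a. With 1 replicate left out, the lower count ranged from 0 to 1 at day 1 and from 1 to 2 at day 2. The 7 called higher at day 1 in TXdXicCast included Dazl (log2 fold change 0.62 ± 0.26, edgeR adjusted p = 0.0406), a call against the degraded day 0 libraries that was lost without replicate 1 or replicate 3. The gene called higher at day 4 there and not in TXdXicB6 was Sycp1, a call that was lost without replicate 1. The count of 0 lower in TXdXicB6 at day 1 was 1 at an unadjusted p under 0.05 (Dazl) and 0 with DESeq2. It was 2 without the filter on low counts. Between days 3 and 4, Taf7l fell by 2.01 and 1.73 on the log2 scale in TXdXicB6 and TXdXicCast, Sycp1 by 1.86 and 2.01 and Mael by 1.13 and 1.12, each with an edgeR adjusted p under the threshold. Ddx4 was not called, with -0.53 ± 0.21 (SE, adjusted p = 0.0983, and 0.0369 with the replicate block) in TXdXicB6 and -0.48 ± 0.21 (adjusted p = 0.124) in TXdXicCast. Sycp3 gave -0.36 ± 0.27 (SE, adjusted p = 0.441) in TXdXicB6 and -0.82 ± 0.28 (adjusted p = 0.0443) in TXdXicCast. In TXdXicCast, 2 of the 3 day 4 libraries held 0 counts of Asz1. Ddx4 ended at 16.7 ± 2.97 CPM (SD, n = 3) in TXdXicB6 and at 17.8 ± 2.78 CPM in TXdXicCast.

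With the filter on low counts and no replicate block, edgeR called the change from day 0 different between the deletion lines for Dazl alone. At day 0 it stood at 72.2, 95.5 and 132 CPM in TXdXicB6 and at 19.18, 40.9 and 24.4 CPM in TXdXicCast, and at day 1 at 59.9, 52.3 and 94.1 against 44.4, 35.4 and 50.7 CPM. The lines did not overlap on either day, and the day 1 difference of -0.66 ± 0.26 (SE, log2) was not called (edgeR adjusted p = 0.634). At day 4 the lines overlapped, at 3.21, 2.58 and 1.72 against 2.13, 3.00 and 1.22 CPM. The day 0 level was lower in TXdXicCast by 1.82 ± 0.26 (SE, log2, edgeR adjusted p = 4.17e-05), in the libraries made from degraded RNA, where 8.56% of all genes were called lower. The change from day 0 was less negative in TXdXicCast by 1.16 ± 0.36 at day 1 (adjusted p = 0.066, and 0.0261 with the replicate block), 1.48 ± 0.37 at day 2 (adjusted p = 0.0212), 1.50 ± 0.38 at day 3 (adjusted p = 0.0163) and 1.52 ± 0.42 at day 4 (adjusted p = 0.0155). With the replicate block the change of Tuba3a to day 4 was called as well (-0.99, edgeR adjusted p = 0.0337). Without the filter on low counts, 3 of the 10 genes were called in the change to day 1. In each of the changes to days 2, 3 and 4 it was 2 genes. Of all genes, 3.90%, 5.60%, 8.44% and 14.2% were called in these contrasts. The calls at days 2, 3 and 4 were lost without replicate 1 and without replicate 3. From day 1, which leaves the degraded libraries out of the contrast, the lines differed in the Dazl change to day 4 by 0.36 ± 0.42 (adjusted p = 0.857), and no gene of the 10 was called, against 0.656% of all genes. That count of 0 was the same at an unadjusted p under 0.05 and with DESeq2. At day 0 the fibroblast markers Col1a1, Col1a2 and Thy1 summed to a median of 71.0 CPM in TXdXicCast and 37.4 CPM in TXdXicB6, with overlapping libraries. The naive pluripotency genes summed to medians of 6358 and 7082 CPM, without overlap. The part of RNA quality or of other cells in the day 0 difference was not tested.

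The tubulins differed between the lines in level at later days. Tuba3b stood at 8.65, 7.68 and 5.19 CPM at day 3 in TXdXicB6 and at 3.65, 4.02 and 0.891 CPM in TXdXicCast, without overlap (log2 difference -1.39 ± 0.35, SE, edgeR adjusted p = 0.0471). Tuba3a stood at 6.48, 3.24 and 3.98 CPM at day 4 in TXdXicB6 and at 2.58, 2.52 and 1.10 CPM in TXdXicCast (-1.15 ± 0.30, adjusted p = 0.0228). Each was the 1 gene of the 10 called in its contrast, beside 1.17% of all genes at day 3 and 5.40% at day 4, and both calls were lost without any one replicate. The Tuba3b call was also lost with DESeq2, with DESeq2 size factors and without the degraded libraries. At days 1 and 2 no gene of the 10 was called in level (0.383% and 0.353% of all genes), with 1 and 2 at an unadjusted p under 0.05 and 0 with DESeq2. Without the filter on low counts, the counts in level were 1, 2, 2 and 3 at days 1 to 4. With the replicate block, Tuba3b was called at day 2 and Sycp3 at day 4 as well.

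The half-times of the deletion lines were 1.27 ± 0.19 days for Dazl in TXdXicB6 and 2.19 ± 0.38 in TXdXicCast (SD, n = 3), where the day 0 level was low. Tuba3a took 2.05 ± 0.27 days in TXdXicB6 and 1.36 ± 0.07 in TXdXicCast, and Tuba3b 2.67 ± 0.04 and 2.26 ± 0.22. For each of these 3 genes the replicates of the lines did not overlap, and the exact two-sided permutation test gave p = 0.1 (adjusted p = 0.1 over the 3 genes), the smallest that 3 against 3 replicates allow. Hormad1 took 3.47 ± 0.42 days in TXdXicB6 (n = 3) and 3.34 in the 2 TXdXicCast replicates that crossed 50% of the day 0 level. These times are all measured against day 0, in TXdXicCast the degraded libraries. Measured against the day 1 level instead, 50% was reached at day 1.61 ± 0.09 in TXdXicB6 and 1.75 ± 0.19 in TXdXicCast for Dazl, 2.82 ± 0.29 and 2.58 ± 0.42 for Tuba3a and 2.497 ± 0.22 and 2.04 ± 0.24 for Tuba3b (SD, n = 3). For Hormad1 it was day 2.58 ± 0.23 and 2.34 ± 0.17, for Asz1 2.49 ± 0.22 and 2.85 ± 0.21 and for Sycp1 3.69 ± 0.22 and 3.51 ± 0.39. The replicates of the lines then overlapped for Dazl, Tuba3a and Tuba3b, so for these 3 the separation was seen with day 0 and not with day 1 as the reference. For Asz1, the scarcest gene, they did not overlap, with the latest TXdXicB6 replicate at 2.67 and the earliest TXdXicCast replicate at 2.71 days.

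Counts from reads over SNPs, which separate B6 from Cast transcripts, showed that the alleles of a gene did not always change alike. Sycp1 carried 64.4%, 68.5% and 66.9% B6 counts at day 1 in TX1072 and 34.6%, 38.5% and 46.4% at day 4, from 73 to 194 and from 13 to 28 allele-specific counts per library. In TXdXicB6 the mean B6 share went from 58.1% ± 8.04 at day 1 to 34.7% ± 7.11 at day 4, and in TXdXicCast from 57.7% ± 1.45 to 38.9% ± 9.94 (SD, n = 3). In all 3 lines the day 1 and day 4 libraries did not overlap, with the B6 share of this autosomal gene lower at day 4. Day 0 rested on 10 to 38 allele-specific counts per library, with means of 54.6% in TX1072, 41.7% in TXdXicB6 and 54.3% in TXdXicCast, and in TXdXicB6 its 2 libraries, at 34.8% and 48.6%, overlapped those of day 4. No test was run on this difference, and 3 against 3 libraries could not give an exact p under 0.1.

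Taf7l, on the X chromosome, differed by line. Xist silences in cis the X chromosome that transcribes it, and each deletion line lacks the X inactivation center on 1 X chromosome. In TXdXicB6, 86.0%, 88.2% and 100% of Taf7l allele-specific counts were from the B6 allele at day 4, and in TXdXicCast 58.1%, 61.5% and 62.5%, from 10 to 43 counts per library. On day 2 the line means were 86.1% and 59.8%, and on day 3 83.7% and 53.4%, without overlap on any of these days (exact two-sided permutation p = 0.1 for each of days 2, 3 and 4, the smallest possible), and 69.8% and 75.1% at day 1 (exact p = 0.7). In TX1072 the B6 share was 60.3% ± 14.8 at day 3 and 91.9% ± 3.19 at day 4 (SD, n = 3). With 10 to 43 counts behind each day 4 value, the shares are known only roughly.

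Shares of the other genes are given as line means. Mael stood between 79.7% and 88.8% B6 in the means of all lines from day 1 on, Ddx4 between 60.4% and 72.8% at all days, and Dazl between 25.3% and 42.1% at days 0 to 3. The B6 share of Dazl was higher at day 3 than at day 0 without overlap in TX1072 (42.1% ± 7.62 against 26.3% ± 1.78) and in TXdXicB6 (37.1% ± 1.98 against 25.3% ± 7.93), from 17 to 68 counts per library at day 3, while in TXdXicCast the days overlapped. Replicate 1 of TXdXicB6 at day 0 gave 16.1% from 31 counts, and only 5.21% of its counts over all genes were assigned to an allele. Without that library the day 0 mean was 29.8%, and day 3 still lay above it. Replicate 2 of TXdXicB6 at day 2 was also sparse, with 9.57% assigned, whereas the other deletion-line libraries had 20.3% to 34.9%. Hormad1 stood between 49.7% and 59.3%. Tuba3a stood between 42.1% and 57.9%, and its deletion lines did not overlap at day 0 (45.6% to 48.7% in TXdXicB6 and 55.4% to 61.1% in TXdXicCast), day 1 (46.9% to 52.6% and 56.7% to 59.4%) and day 3 (35.7% to 45.3% and 49.5% to 56.8%), though they did at days 2 and 4. This difference was not tested. Sycp3 had 10 to 45 allele-specific counts in the libraries that gave a share and stood at 88.4% ± 11.1 B6 at day 3 in TX1072 and at 86.6% ± 9.92 and 95.6% ± 4.07 at days 3 and 4 in TXdXicB6 (SD, n = 3). Asz1, with 10 to 19 counts at day 1, stood there at 54.3% ± 10.9 in TX1072, 66.2% ± 12.5 in TXdXicB6 (SD, n = 3) and 75.6% in the 2 TXdXicCast libraries that gave a share. Tuba3b came mostly from Cast, with 7.75% ± 3.92 B6 counts at day 1 in TX1072, and its reads may partly be those of Tuba3a. Mael had too few allele-specific counts at day 0 and Tuba3b at day 4 for a share.

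**Figure D3:**
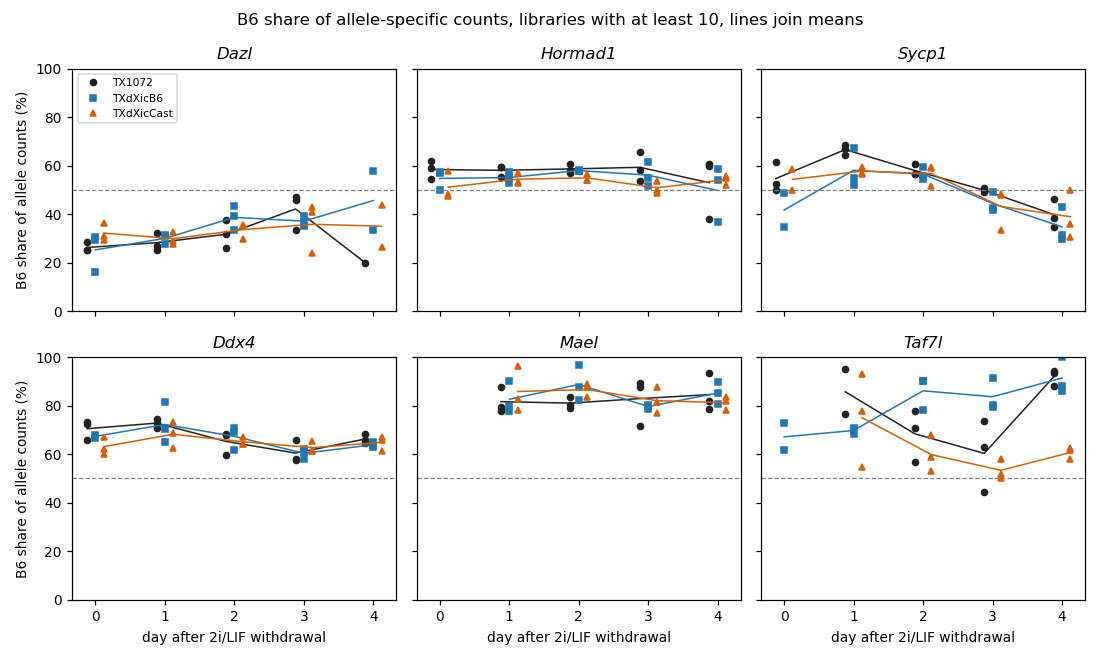
Share of allele-specific counts from the B6 allele for 6 germline genes. The x axis is the day, the y axis is percent B6, each point is 1 library with at least 10 such counts, lines join means, and the dashed line is an equal split. Sycp1 declines from day 1 to day 4 in all lines, and Taf7l separates TXdXicB6 (91.4% at day 4) from TXdXicCast (60.7%).

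In single cells the genes were seen in part of the cells only. The study retained 1472 of 2000 capture sites, namely 277, 325, 341, 257 and 272 cells at days 0 to 4, with medians of 138565, 124651, 125591, 130377 and 171158 UMIs per cell. One culture was profiled per day, so no test was made, and intervals are exact 95% binomial or Poisson intervals that cover counting error only. No cell type that should lack these genes was present to measure free RNA. A Dazl UMI was found in 67.1% of day 0 cells (interval 61.3 to 72.6), in 51.1%, 34.9% and 18.7% of the cells of days 1, 2 and 3, and in 5.15% of day 4 cells (2.84 to 8.49). With every cell thinned to 40000 UMIs, which no cell fell short of, the shares were 58.1%, 43.7%, 27.0%, 14.8% and 3.31%. At day 1 the summed level, 95.6 CPM, was within counting error of the 96.7 CPM of day 0, while the share of cells with a UMI was lower. Day 3 rested on few cells, since 1 cell held 167 of 484 Dazl UMIs.

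The share of cells with a UMI was read for the other genes in the same way. Hormad1 was detected in 62.5%, 86.2%, 73.0%, 24.5% and 6.99% of cells at days 0 to 4, Tuba3a in 54.2%, 53.5%, 36.4%, 15.6% and 3.31%, and Tuba3b in 32.5%, 37.8%, 23.8%, 5.84% and 1.47%. Sycp1 went from 12.6% of day 0 cells to 63.3% of day 2 cells and back to 15.1% of day 4 cells. Hormad1 at day 1 was the most widely detected of the 10 genes at any day. Ddx4 was in 3.25% of cells at day 0 and in 33.1%, 35.4% and 33.1% at days 2, 3 and 4, and Mael in 1.08%, 30.2%, 30.0% and 13.2% at the same days. Sycp3 was in 10.5%, 36.4%, 32.7% and 14.0%, and Taf7l in 2.53%, 30.5%, 19.8% and 6.25%. At day 1 Sycp3 was in 11.7% of cells. Its summed level in the cells was 3.65 CPM (interval 3.08 to 4.30) at day 0 and 7.00 CPM (6.21 to 7.85) at day 1. That was a rise beyond counting error which the bulk libraries of day 1 did not show. From day 2 to day 3 the share of Taf7l cells was lower, while its summed level in the cells, 23.3 and 24.7 CPM, was within counting error, and 1 cell held 122 of the 795 Taf7l UMIs of day 3. None of these 4 genes was detected in more than 36.4% of cells at any day, although their bulk levels rose by over 3 on the log2 scale. Thinned to 40000 UMIs, Ddx4 stood at 2.89%, 25.8%, 27.6% and 25.7% and Taf7l at 1.81%, 24.3%, 15.6% and 4.04% at days 0, 2, 3 and 4.

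**Figure D4:**
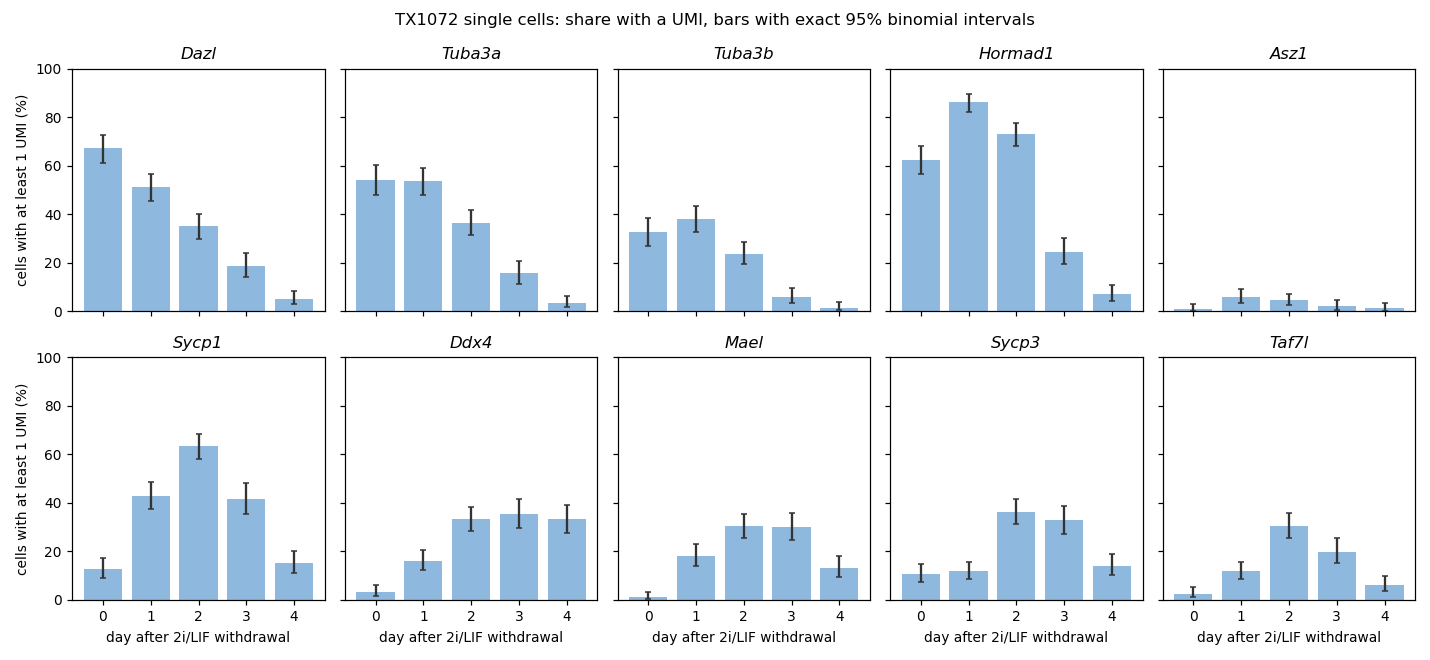
Share of TX1072 cells with at least 1 UMI of each germline gene. The x axis is the day, the y axis is percent of retained cells and error bars are exact 95% binomial intervals. Dazl declines at every day, Hormad1 peaks at day 1 at 86.2%, and Ddx4 stays near 33.1% to 35.4% from day 2 on.

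For Asz1 the shares were 1.08%, 5.85% and 1.10% on days 0, 1 and 4, and 1 day 4 cell held 45 of its 48 UMIs. The number of the 10 genes detected in a cell had a median of 2, 3, 4, 2 and 1 at days 0 to 4. Cells with 5 or more of the 10 made up 5.78%, 23.7%, 29.0%, 7.00% and 1.84%, and cells with none 5.05%, 2.15%, 1.47%, 14.0% and 42.6%. Cells thus most often held several of these genes at days 1 and 2, with no interval given that would set these days apart. At day 4 most cells held 1 or none.

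**Figure D5:**
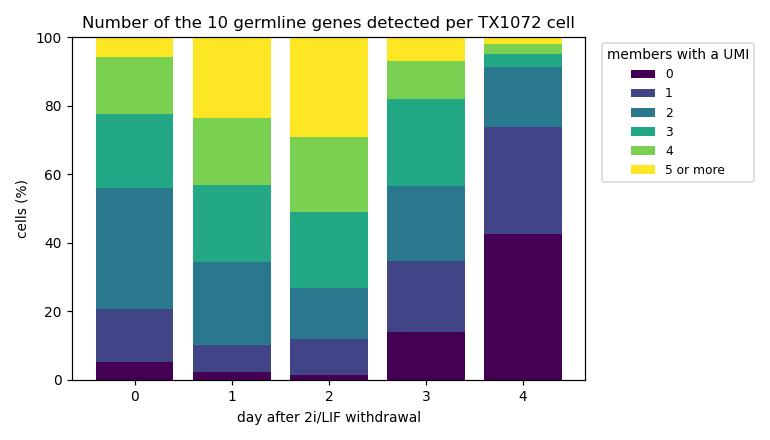
Number of the 10 germline genes with a UMI in each TX1072 cell. The x axis is the day, the y axis is percent of retained cells, and stacked colors run from 0 genes at the bottom to 5 or more at the top. The class of 5 or more is widest at day 2 (29.0% of cells) and the class of 0 at day 4 (42.6%).

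Detection of one gene was compared between cells with and without another. Of 149 pairs and days with at least 20 cells on each side, 14 had intervals that did not overlap, and in all 14 the share was higher in the positive cells. Pairs of genes outside this list were not compared. How often other genes give such a result is therefore not known, and the count is not read as a trait of the germline genes. Tuba3b was in 47.3% of Tuba3a-positive and 15.0% of Tuba3a-negative cells at day 0, a pair that may share reads. At day 2, Mael was in 40.7% of Ddx4-positive and 25.0% of Ddx4-negative cells, and Taf7l in 36.6% of Sycp1-positive and 20.0% of Sycp1-negative cells. In both day 2 pairs the median depth of the positive cells was the higher one, at 132288 against 122082 UMIs for Ddx4 and 129274 against 119133 for Sycp1, and its part in the result was not tested. The positive cells were the deeper ones in 12 of the 14. In the other 2, Tuba3a with Tuba3b at day 1 and Hormad1 with Sycp1 at day 3, they were the shallower ones, with Sycp1 in 57.1% of Hormad1-positive and 36.6% of Hormad1-negative cells at day 3, with medians of 123908 and 131374 UMIs. Nanog, a naive pluripotency factor, stood at 17.6 CPM (interval 16.2 to 19.15) in the 249 Hormad1-positive cells of day 2 and at 45.5 CPM (41.6 to 49.6) in the 92 Hormad1-negative cells. At day 0 the same groups stood at 369.5 and 353 CPM. Nanog was likewise lower in the Sycp1-positive and Taf7l-positive cells of day 2, at 17.8 against 38.0 CPM and 14.6 against 29.5 CPM, beyond counting error. For Dazl the day 2 values were 23.8 and 25.6 CPM and for Ddx4 25.5 and 24.7 CPM, with overlapping intervals. These pairs were chosen after their values were seen. Other naive, formative and DNA methylation genes were compared in the same way, and their values are not given here. The intervals pool the UMIs of all cells in a group and leave out the spread between cells.

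Reads over introns made up a large part of the Hormad1 UMIs at every day. Unspliced UMIs made up 31.7%, 35.4%, 26.1%, 42.7% and 51.2% of its UMIs at days 0 to 4, against 10.7% to 13.3% for all genes. For Dazl the unspliced share was between 2.48% and 4.70% at all days, and for Tuba3a between 0.855% and 3.45%. Sycp1 had 25.5% at day 0 and 12.8% at day 4. Ddx4 at day 0 (34.5%, of 78 spliced and 41 unspliced UMIs) and Asz1 at day 1 (39.1%, of 98 and 63) were as high as Hormad1 on those days within counting error, and from day 2 on both were lower. Hormad1 at day 4 rested on 185 spliced and 194 unspliced UMIs (exact interval of the share, 46.0% to 56.3%), so its share was above that of day 2 by more than counting error.

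Other germ cell genes were counted from lists of the same pathways. Of 20 piRNA and nuage genes, 12 were higher and 1 lower at day 1 in TX1072 (all genes, 25.1% and 21.0%), and 7 higher and 11 lower at day 4 (all genes, 30.3% and 28.7%), with median log2 fold changes of 1.10 and -1.003. Tdrd1 and Tdrd5, Tudor proteins of the nuage, rose to day 4 by 5.97 ± 0.30 and 5.05 ± 0.19 on the log2 scale, from 0.12 to 8.14 CPM and from 0.49 to 16.8 CPM. Tdrd7 rose by 2.09 and Mov10l1, the piRNA helicase, by 0.82. In the other direction Piwil1 fell by 2.92, Stk31 by 2.83, Tdrd12 by 2.68, from 159 to 24.8 CPM, and Gtsf1 by 2.66. Between days 3 and 4, 12 of the 20 fell and 2 rose (all genes, 11.5% and 15.4%).

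Of 24 meiotic chromosome genes, 15 were higher and 2 lower at day 1, and 8 higher and 12 lower at day 4 (medians 1.17 and -0.61), beside 25.1% and 21.0% of all genes at day 1 and 30.3% and 28.7% at day 4. Smc1b, a meiotic cohesin subunit, rose by 3.21 at day 1, from 4.37 to 41.2 CPM, and was 1.47 below day 0 at day 4. Meioc, which keeps germ cells in meiosis, rose by 3.87 to day 4 and peaked at 34.4 CPM at day 3. Sycp2, the partner of Sycp3 in the axis, rose by 1.81, Tex15 by 1.39 and Mnd1 by 0.65, whereas Msh4 fell by 3.76, Hormad2 by 1.63 and Syce1 by 1.34. In this list 17 of the 24 genes fell between days 3 and 4 and 0 rose (all genes, 11.5% and 15.4%). Of 16 other germ cell genes tested (18 listed), 7 were higher and 2 lower at day 1, and 4 higher and 10 lower at day 4 (medians 0.58 and -1.997), beside the same shares of all genes. Cpeb1 rose by 3.98, Dnd1 by 2.28, Zcwpw1 by 1.88 and Slc25a31 by 0.93, and Magea5 fell by 8.59, to 0.01 CPM, Sohlh2 by 3.56, Rpl10l by 3.09 and Tex14 by 2.09. In each of the 3 lists more genes were higher than lower at day 1 and more were lower than higher at day 4.

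Genes of DNA methylation and of the E2F6 complex were called in both directions, beside 30.3% of all genes higher and 28.7% lower at day 4. Dnmt3l, Dnmt3a and Dnmt3b, which establish DNA methylation, stood at 35.3, 54.8 and 182 CPM at day 0 and at 1491, 447 and 652 CPM at day 1, and Prdm14, which holds methylation down, went from 166 to 13.1 CPM. Of the 9 DNA methylation genes 3 rose and 4 fell to day 4. E2f6 rose from 24.8 ± 1.19 to 45.5 CPM at day 1 and 46.7 ± 4.26 CPM at day 4 (log2 fold change 0.91 ± 0.11, SE), Pcgf6 was 0.55 above day 0 at day 1 and 0.42 below it at day 4, and of the 15 PRC1.6 and E2F6 genes 2 were higher and 7 lower at day 4, Wdr5 with -1.30. Of 7 H3K9 methylation genes 2 were higher and 2 lower, with Suv39h1 at 1.59. Several of these counts, such as 3 and 4 of 9, lie near the shares of all genes. All 10 naive pluripotency genes were lower at day 4, among them Nanog (-2.26), Esrrb (-3.47) and Zfp42 (-3.14), and all 6 formative genes were higher, Fgf5 by 10.01.

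The 5 other genes whose levels over the 15 TX1072 libraries were most like the mean standardized profile of the 10 genes were Zfp978 (Pearson r = 0.983), Slc7a11 (0.972), Tex11 (0.971), Gm364 (0.971) and Zfp493 (0.970), given as a description over libraries that share days. Among the 10 genes themselves, Dazl correlated with Tuba3a at r = 0.942 and with Ddx4 at -0.642, and Mael with Taf7l at 0.934, again over the 15 libraries.

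Markers of other cell types were read beside these values. The 6 primordial germ cell markers summed to a median of 275 CPM at day 0, with Kit the most abundant at 119 CPM, then to 50.5, 73.9, 104 and 92.2 CPM at days 1 to 4, and none was at 0. Of these 6, 4 were called lower at day 4, beside 28.7% of all genes. The 5 spermatogenic markers never exceeded 0.745 CPM in sum in a TX1072 library, with 2 to 4 of the 5 at 0 in all libraries of a day and Zpbp the most abundant. The 6 two-cell-like markers summed to a median of 0.055, 0.102 and 1.38 CPM at days 0, 1 and 2. They stood at 11.2 CPM at day 3 (Zscan4d 3.86 CPM) and 3.06 CPM at day 4. At each of days 0 and 1, 3 of the 6 held 0 counts. All 6 were higher at day 4, beside 30.3% of all genes. Of the rising germline genes, Ddx4, Mael, Sycp1 and Taf7l were already called higher at day 1 in bulk, and Sycp3 was not. In single cells of day 3, the 3 cells with 3 or more UMIs of these markers held 15 of 714 Sycp3 UMIs, 142 of 2329 Sycp1 UMIs and 0 of 795 Taf7l UMIs. From day 0 to day 4 the summed level of 4 endoderm markers went from 2.05 to 6.79 CPM, with all 4 called higher (all genes, 30.3%). That of 3 trophoblast markers went from a median of 10.3 to one of 80.4 CPM (69.7 to 123 CPM over the libraries, most of it Eomes), and that of 3 fibroblast markers from 24.8 to 11.04 CPM. The most abundant trophoblast marker was Cdx2 at day 0 (mean 10.4 CPM) and Eomes at day 4 (mean 88.4 CPM). The higher trophoblast sum was thus that of Eomes and not of all 3 markers. The part of these cell types in the results was not tested.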

How the data were processed

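Bulk RNA-seq of 45 libraries and single-cell RNA-seq of the 1472 cells that passed the quality filter of the study, taken by cell name from its cell list, were used. The authors deposited whole-number counts per gene: the submitters' notes name STAR 2.5.2b, featureCounts and build mm10/GRCm38, bulk counts are of uniquely aligned exon reads, allele-specific counts come from SNPs that separate B6 from Cast, and single-cell counts are UMIs of strand-specific 3′ reads. TX1072 and the deletion lines came from different kits and sequencers and were fitted separately, with no test across them.

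Counts of 15 TX1072 libraries and of 30 deletion-line libraries were tested with edgeR 4.0.16 (quasi-likelihood, TMM, filterByExpr, group means, Benjamini-Hochberg over all genes tested, two-sided, adjusted p at most 0.05) in R 4.3.3. SEs are the log2 fold change over the square root of F, and normalized CPM uses the TMM library sizes. ERCC rows held 0 counts in bulk and were left out, as they were in cells. Half-times were interpolated on log2(CPM + 0.1). Allelic shares needed 10 allele-specific counts. Python 3.11.15 with scipy 1.17.1 gave exact intervals. The bulk code was tested on simulated data. The study states that replicates were differentiated on different days, so replicate numbers pair the libraries: within TX1072, deviations of libraries with the same number correlated with a median r of 0.124, against -0.0669 for different numbers, and within a deletion line 0.184 against -0.109.

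Alternatives were DESeq2 1.42.0, its size factors in edgeR, TMM from autosomal genes, no filter, a replicate block, each replicate left out, no TXdXicCast day 0 libraries, other half-time and allele settings (the day 1 level as half-time reference was added after the data were seen), all capture sites, thinned cells and cells with at least 2 UMIs. The 10 genes, the gene lists and the marker lists were chosen with earlier results of these data known. The lists were of piRNA and nuage, meiotic, other germ cell, PRC1.6 and E2F6, H3K9 methylation, DNA methylation, naive and formative genes and of marker genes of 6 cell types. Named were all 10 genes, up to 4 list genes per direction with the largest fold change at day 4 (mean count at least 50), 9 genes fixed by name and the 5 most alike. Single cells of day 1 were sequenced in 2 runs.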

Additional observations from a re-analysis of the deposited data

Results flagged for a closer look

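In single cells, 9 of 50 combinations of gene and day had a capture column that stood apart from the other columns. There were 10 columns per day, and the rule was Dixon's 95% criterion. Chance alone meets it in about 1 of 20 groups of normally distributed values. These levels were not of that kind, since the median column stood at 0 CPM for Asz1 at days 0, 3 and 4 and for Tuba3b at day 4. The 9 of 50 can therefore not be set against that rate. The highest columns stood at 58.8 CPM for Dazl at day 3, 137 and 202 CPM for Sycp1 at days 1 and 2, 17.5 CPM for Sycp3 at day 0, 3.94, 4.23 and 9.38 CPM for Asz1 at days 0, 3 and 4, 86.1 CPM for Hormad1 at day 0 and 1.62 CPM for Tuba3b at day 4. For Dazl at day 3 and Asz1 at day 4 a single cell held 167 of 484 and 45 of 48 UMIs.

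The change of Dazl from day 0 was less negative in TXdXicCast than in TXdXicB6 by 1.48 (log2) at day 2, 1.50 at day 3 and 1.52 at day 4, each called by the interaction contrast of the edgeR fit. In all 3 contrasts the day 0 libraries of TXdXicCast, made from degraded RNA, enter, and their part was not tested. From day 1 the difference to day 4 was 0.36 and was not called.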

How the results depend on the processing

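No fold change of a single gene that was called in the main or the alternative run reversed its direction. Changes of sign between uncalled fold changes were not counted. Counts of genes, half-times, allelic shares and single-cell values were scored only as moved or not moved. Of the fold changes of single genes under each alternative, 2671 kept their call, 68 lost it and 68 gained one. The losses were 20, 23 and 20 without replicates 1, 2 and 3, 2 with DESeq2, 1 with DESeq2 size factors and 2 without the TXdXicCast day 0 libraries. The last 5 concerned Tuba3b in level at day 3 or between days 1 and 2 in TXdXicCast, and Tuba3a between days 2 and 3 in TXdXicB6. In TX1072 no count of called genes moved by over 1.5 times. In the deletion lines, without a filter on low counts 2 of the 10 genes in place of 0 were lower in TXdXicB6 at day 1, 7 in place of 4 changed there between days 1 and 2, and 7 in place of 4 changed in TXdXicCast between days 2 and 3. Between the lines, without that filter, the count for the change from day 0 was 3 in place of 0 to day 1 and 2 in place of 1 to days 2, 3 and 4, and the count for level was 3, 1, 2, 2 and 3 on days 0 to 4 in place of 1, 0, 0, 1 and 1. DESeq2 gave 1 for the change to day 1, 0 for level at day 3 and 2 at day 4, DESeq2 size factors gave 0 for level at day 3, and so did leaving out the TXdXicCast day 0 libraries. The replicate block gave 1 for the change to day 1, 2 for the change to day 4, 1 for level at day 2 and 2 at day 4. Beside the calls given with the results, pairing the replicates added those of Ddx4 and Sycp1 between days 1 and 2 in TXdXicB6. In TXdXicCast it added Tuba3b at day 2 and Tuba3a between days 2 and 3. Ddx4 was added there between days 1 and 2 and between days 2 and 3. DESeq2 without the block also called Ddx4 in those 3 intervals. The cause of these differences was not tested. Leaving out 1 replicate gave ranges of 3 to 6 (7 with all) and 5 to 8 (8 with all) for TXdXicB6 between days 2 and 3 and days 3 and 4, 0 to 1 and 1 to 2 for genes lower in TXdXicCast at days 1 and 2, 3 to 6 between days 1 and 2 there, 0 to 1 for the line difference in change to days 2, 3 and 4, 1 to 2 for level on day 0, 0 to 1 on day 2 and 0 to 0 on days 3 and 4. With the day 1 level as reference, a setting added after the data were seen, 12 times to 50% of the level moved by more than their spread and 3 did not. A further 3 moved with linear interpolation (Hormad1 in TXdXicCast to 3.47 days, Tuba3b in TX1072 to 2.40 and in TXdXicB6 to 2.77) and 2 with a pseudocount of 0.5 CPM (Asz1 in TX1072 to 3.80 and in TXdXicCast to 3.53). Those 2 values rest on 1 replicate each in place of 2. Asz1 in TXdXicB6 also kept 1 replicate in place of 3 with that pseudocount, at 3.78 days. With a minimum of 50 allele-specific counts the B6 share moved to 33.3% for Dazl and 96.6% for Mael at day 2 in TXdXicB6 and to 78.0% for Mael at day 4 in TXdXicCast, each 1 library, and with a minimum of 20 to 4.76% for Tuba3b at day 0 in TX1072. Of the single-cell values 121 moved and 129 did not move by more than their interval or spread, the most with a capture column left out, thinning or 2 UMIs required. Depth limits Asz1 most, with 0 to 25 counts in deletion-line libraries of days 0 and 4.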
